A study of Rattus norvegicus with 12 samples.

Results

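The genes described here encode the proteasome, its activators and its assembly factors. They were taken as the array probes whose gene symbol begins with Psm, a letter from a to g and a digit, leaving out Psmb8 and Psmb9. The rule matched 42 of the 22517 probes, which stood for 41 genes. One of them, Psmc3ip, is not a proteasome component despite its symbol and was not detected on any array, which left 41 probes of 40 genes, out of 13336 genes named on the array. Of these, 37 probes of 36 genes were kept for testing because their signal was above background, at a detection p-value under 0.05, in 3 or more of the 12 arrays. The same filter kept 9137 probes in all. Of the 37, 36 were detected on all 12 arrays and Psma3 on 4. Psma8, Psmb11, Psmc6 and Psmd8 were not detected on any array. Psmd14, Psme3, Psmf1, Psmd10, Psmg3 and Psmg4 had no matched probe and were not analysed here.

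The proteasome is the protease that degrades proteins tagged with ubiquitin in the cytosol and nucleus. Its barrel-shaped 20S core is built of outer rings of alpha subunits, which form the gate, and inner rings of beta subunits, which carry the proteolytic sites, and the 19S cap binds ubiquitin chains, removes them and unfolds the substrate with a ring of ATPases. Interferon-responsive beta subunits and the PA28 activator shape the peptides that a cell presents to T cells, and proteasome genes are raised together by the transcription factor NFE2L1 when proteasome capacity is short.

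Mucosal RNA of male rats of the Sprague Dawley strain (Spraque Dawley as spelled by the submitters) was read on Illumina RatRef-12 bead arrays. Sham rats had their bowel cut and rejoined, and short bowel syndrome (SBS) rats had 75% of the bowel removed, with 6 rats in each operation. The ileum had 3 sham and 4 SBS arrays and the jejunum 1 sham and 4 SBS arrays, a number limited by nucleic acid quality per the labels. No group was unoperated. The rats' age, the interval since surgery and the sampled gut position were not given in the sources used here, and the lone sham jejunal array gives that group no spread of its own.

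Across the arrays, 7041 to 8821 probes were detected, and 36 or 37 of the 37 proteasome probes. All 8 epithelial markers tested were detected on 12 arrays, and none was called between SBS and sham ileum. The array labelled SBS jejunum 4 stood apart by the region marker Fabp6. Fabp6, the ileal bile acid binding protein, had a log2 level of 13.57 there, against 5.98, 6.17 and 7.17 on the other SBS jejunal arrays and 14.24 to 14.45 on the ileal arrays. The sham jejunal array also carried Fabp6, at 11.51. The other ileal marker, Slc10a2, was 4.96 on SBS jejunum 4 and 4.41 to 4.57 on the other SBS jejunal arrays. On the ileal arrays it was 6.49 to 7.29. In mucosa, fewer cells of a type and less RNA per cell cannot be told apart. Levels below are log2 intensities after background correction and quantile normalization, and they are compared between arrays of one probe, not between probes. Exceptions are marker sums, which add levels on the linear scale, and remarks on how close a probe lies to background.

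No proteasome probe passed the test after resection in either gut region. In the ileum 0 of 37 were called by limma at an adjusted p under 0.05, where 2.93% of all kept probes were called. At an unadjusted p under 0.05 there were 5 of 37, or 13.5%, against 16.8% of all kept probes. The 37 log2 differences, SBS minus sham, had a median of 0.10 and ran from -0.20 to 0.65. The median over all kept probes was 0.03. With median scaling in place of quantile normalization these medians were 0.022 and -0.09, and 21 of the 37 were positive. With quantile normalization differences were positive for 29 of 37 proteasome probes, or 78.4%, and for 55.1% of all kept probes. They were small: 1 of 37 was over 0.5 in size, or 2.7%, against 12.8% of all kept probes. A missed threshold does not show that levels were equal, but each interval gives a range for that probe's measured difference under quantile normalization. Psma3 was detected on 4 arrays, so its interval does not bound a change in its RNA. Psma1, Psmd5 and Psmg2 were detected on 12 arrays but were dim, with lowest levels of 4.73, 5.05 and 5.37. The undetected Psmd8 read up to 4.70. Differences of such dim probes can be compressed, so their intervals need not bound a change in RNA either. The 95% interval lay within 1 log2 unit of 0 for 36 of 37 proteasome probes, the exception being Psme2, and for 85% of all kept probes. It lay within 1.5-fold for 24 of 37, or 64.9%, against 50.2%.

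In the jejunum, with 1 sham array, 0 of 37 were called by limma, where 1.47% of all kept probes were called. The count at an unadjusted p under 0.05 was 2 of 37, or 5.41%, against 11.9%. The median difference was 0.09, with a range of -0.49 to 0.77, and 0.01 over all kept probes. It was 0.23 with median scaling and 0.085 with the rat as a random block. With replicate number as a block it was -0.0082, with 18 of 37 positive, but those numbers tie sham rats to SBS rats arbitrarily. Without these changes 29 of 37 were positive, where 51.4% of all kept probes were, and 2 of 37 were over 0.5 in size, against 18.4%. Of the 37, 23 were positive in both regions, where 29 of 37 were positive in each. The share over all kept probes was not counted, so the 23 do not show agreement between regions. The intervals were wider here. They lay within 1 log2 unit of 0 for 33 of 37, all but Psmd1, Psmd7, Psme4 and Psmd5, against 67.4% of all kept probes, and within 1.5-fold for 8 of 37, or 21.6%, against 21.4%. The difference between the 2 resection effects was called for 0 of 37 probes, against 0.186% of all kept probes, and 1 of 37 had an unadjusted p under 0.05, against 5.47%.

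**Figure D1:**
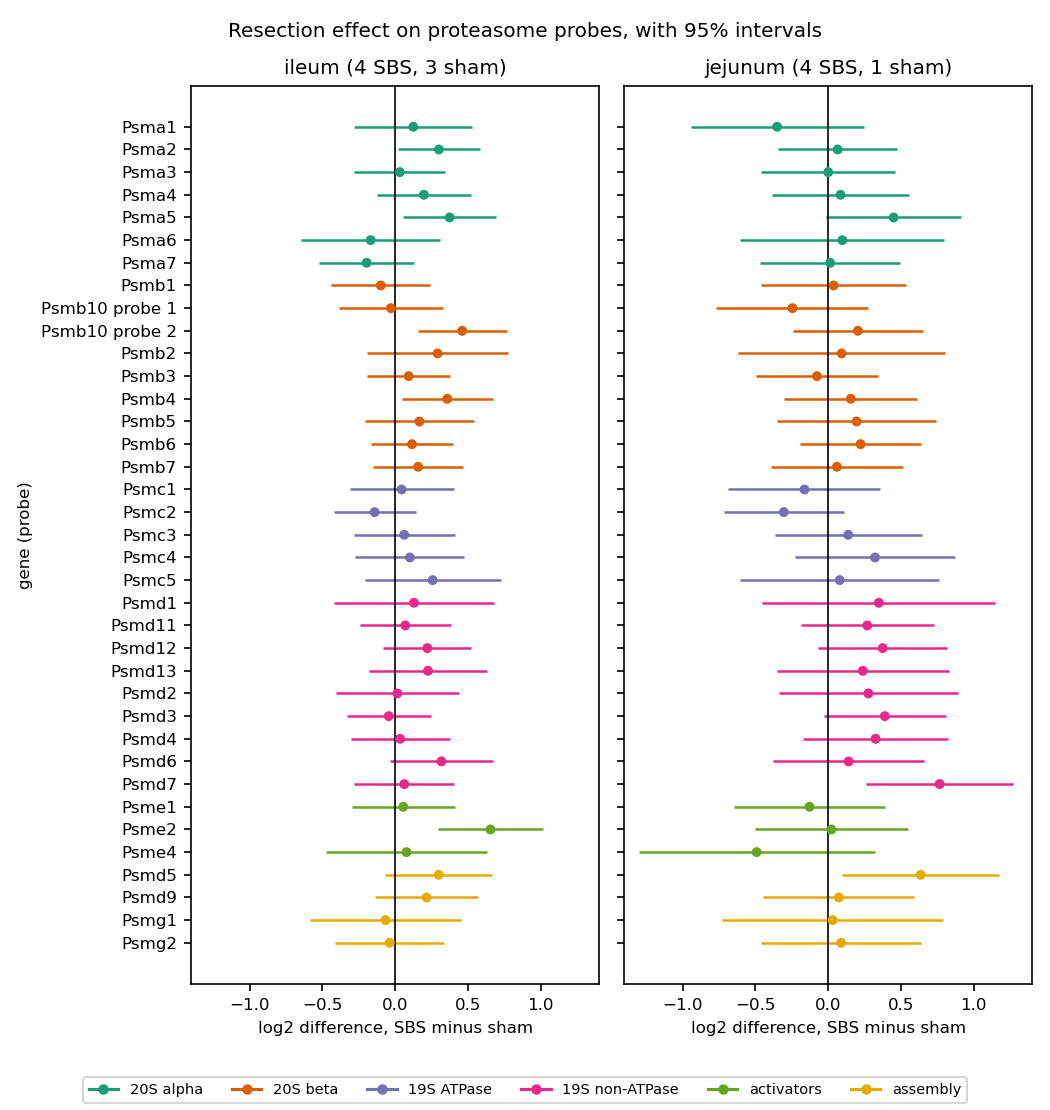
Log2 difference, SBS minus sham, of each of the 37 kept proteasome probes in ileum (left) and jejunum (right), with points for the estimate and lines for the 95% interval of the limma model, coloured by class. Most points lie just to the right of 0, most intervals cross it, and those of the jejunum are wider.

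**Figure D2:**
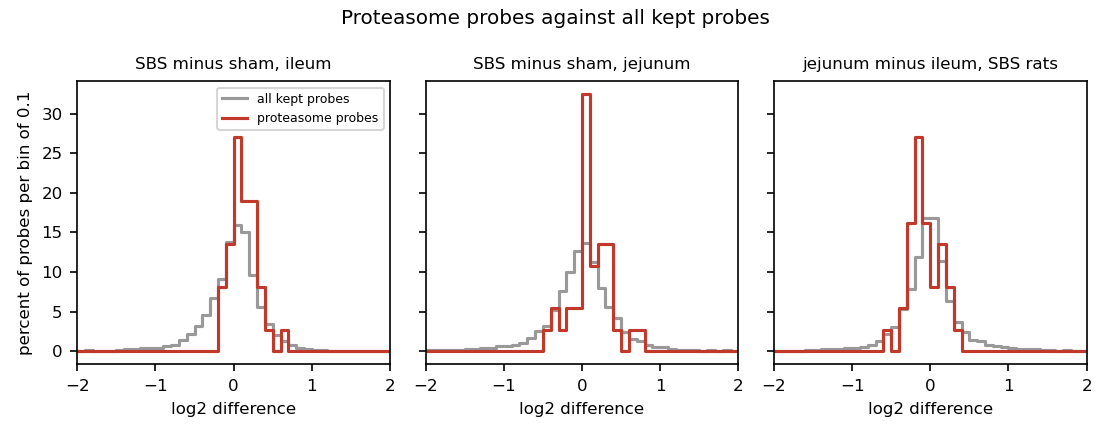
Percent of probes in bins of 0.1 log2 units for all kept probes (grey) and the 37 proteasome probes (red), in 3 comparisons, drawn from -2 to 2. The proteasome probes lie close to 0. All 9137 kept probes have tails on both sides, of which a set of 37 would show few values.

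The alpha ring had 7 kept probes in the ileum comparison, 5 of them positive, with a median difference of 0.12. Psma5 differed most. Its log2 levels were 8.01, 8.18 and 8.20 on the sham ileal arrays, and 8.53, 8.87, 8.28 and 8.33 on the SBS ileal arrays. The groups did not overlap, with SBS higher. The difference of 0.37 ± 0.15 (SE; 95% interval 0.06 to 0.69) had a limma adjusted p of 0.215. In the jejunum Psma5 stood at 8.19 on the sham array and at 8.70, 8.68, 8.63 and 8.57 on the SBS arrays. All 4 SBS arrays were above the sham array and close to each other. The difference was 0.45 ± 0.21 (95% interval -0.02 to 0.91), with a limma adjusted p of 0.443. Psma2 also did not overlap between the ileal groups, at 9.38 to 9.45 in sham and 9.48 to 9.91 in SBS, with a limma adjusted p of 0.262. The alpha ring probes on the negative side in the ileum were Psma6 at -0.17 and Psma7 at -0.20.

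The beta ring had 9 kept probes of 8 genes, 7 of them positive in the ileum with a median of 0.16. In the jejunum 7 were positive with a median of 0.09, or -0.076 with the arbitrary replicate number as a block. Psmb5, Psmb6 and Psmb7 carry the constitutive proteolytic sites. Psmb5, the chymotrypsin-like subunit, had levels of 9.21, 9.32 and 9.45 in sham ileum and 9.26, 9.54, 9.43 and 9.73 in SBS ileum, and the groups overlapped. Its difference was 0.17 ± 0.17 in the ileum (95% interval -0.21 to 0.54) and 0.19 ± 0.25 in the jejunum (95% interval -0.35 to 0.74). Psmb6, the caspase-like subunit, differed by 0.11 in the ileum (95% interval -0.17 to 0.40) and 0.22 in the jejunum (95% interval -0.19 to 0.64). Psmb7, the trypsin-like subunit, differed by 0.16 (95% interval -0.15 to 0.47) and 0.06 (95% interval -0.39 to 0.51). None of these 3 passed the test, and limma adjusted p-values ran from 0.626 to 0.966. Psmb4, a subunit without a proteolytic site, stood at 10.52, 10.41 and 10.57 in sham ileum and 10.73, 10.98, 10.70 and 11.01 in SBS ileum. The groups did not overlap, and the difference of 0.36 (95% interval 0.04 to 0.67) had a limma adjusted p of 0.227.

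Psmb10, the interferon-responsive counterpart of Psmb7, was read by 2 probes that disagreed. Probe 1 stood at 10.60, 10.67 and 10.52 in sham ileum and at 10.20, 10.44, 10.71 and 10.93 in SBS ileum, and the SBS arrays lay on both sides of the sham arrays. Its difference was -0.03 (95% interval -0.39 to 0.33). Probe 2 stood at 8.09, 8.19 and 8.08 in sham ileum and at 8.50, 8.38, 8.60 and 8.82 in SBS ileum. Here all 4 SBS arrays were above all 3 sham arrays, and the difference was 0.46 ± 0.14 (95% interval 0.15 to 0.77), with a limma adjusted p of 0.109. Within groups the probes' deviations had a correlation of 0.53 over 11 arrays. With array weights probe 2 reached a limma adjusted p of 0.0276. The other interferon-responsive beta subunits lie outside the rule and are given for context. Psmb9 differed by 0.46 in the ileum and Psmb8 by 0.21, with limma adjusted p-values of 0.255 and 0.696.

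The activators showed the largest ileal difference of any proteasome probe. PA28, a ring of Psme1 and Psme2, opens the core gate without ubiquitin. Psme2 stood at 8.05, 8.15 and 7.84 in sham ileum and at 8.55, 8.67, 8.42 and 9.03 in SBS ileum. All 4 SBS arrays exceeded all 3 sham arrays. The difference was 0.65 ± 0.17, or 1.57-fold (95% interval 0.29 to 1.01), and its limma adjusted p of 0.0577 missed the threshold. It passed with array weights, at 0.019, and without SBS jejunum 4, at 0.0417, and ran up to 0.284 when other arrays were left out. In the jejunum Psme2 stood at 8.30 on the sham array and 8.37, 8.39, 8.48 and 8.04 on the SBS arrays, which lay on both sides of it. That difference was 0.02 (95% interval -0.51 to 0.55). The difference between the resection effects, -0.63, had a limma adjusted p of 0.923. Psme1, its partner, stood at 10.51, 10.68 and 10.74 in sham ileum and at 10.70, 10.57, 10.41 and 11.11 in SBS ileum. These overlapped, with a difference of 0.05 (95% interval -0.30 to 0.41).

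The summed level of T and NK cell markers was higher on every SBS ileal array than on the sham ileal arrays. This sum leans on Gzma, the marker with the highest level on each SBS ileal array. Gzma stood at 8.6 to 9.6 in sham ileum and 10.2 to 10.6 in SBS ileum. A sum without Gzma was not tested. Singly, the markers were split in direction. Of 10 markers 9 were kept, and Cd4 was not detected on any array. Their summed level, on the linear scale, was 1740 to 2511 in sham ileum and 2570 to 3531 in SBS ileum. It was 1705 in sham jejunum and 948.1 to 1801 in SBS jejunum. The granule genes Gzma, Gzmb and Nkg7 had differences of 1.16, 1.29 and 1.12 in the ileum. Cd3g and Cd3e differed by 0.22 and 0.01, and Cd8a, Cd3d, Lck and Cd247 by -0.01, -0.51, -0.52 and -0.53. None of the markers was called there, and 5 of the 9 kept were positive, with a median of 0.01. The 3 B cell markers measured fell in SBS ileum, and their summed level was 186.1 to 433.8 in sham and 68.66 to 108.4 in SBS. The part of these cells in the Psme2 and Psmb10 values was not tested.

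Psme4 encodes PA200, a nuclear activator of the core. It stood at 8.21, 8.24 and 8.48 in sham ileum, 8.38, 8.33, 9.13 and 7.70 in SBS ileum, 8.33 in sham jejunum and 7.79, 7.80, 7.74 and 8.03 in SBS jejunum. The SBS ileal arrays spread widest, and the SBS jejunal arrays were all below the sham jejunal array. Resection differences were 0.08 in the ileum (95% interval -0.48 to 0.63) and -0.49 in the jejunum (95% interval -1.30 to 0.32, limma adjusted p of 0.708).

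**Figure D3:**
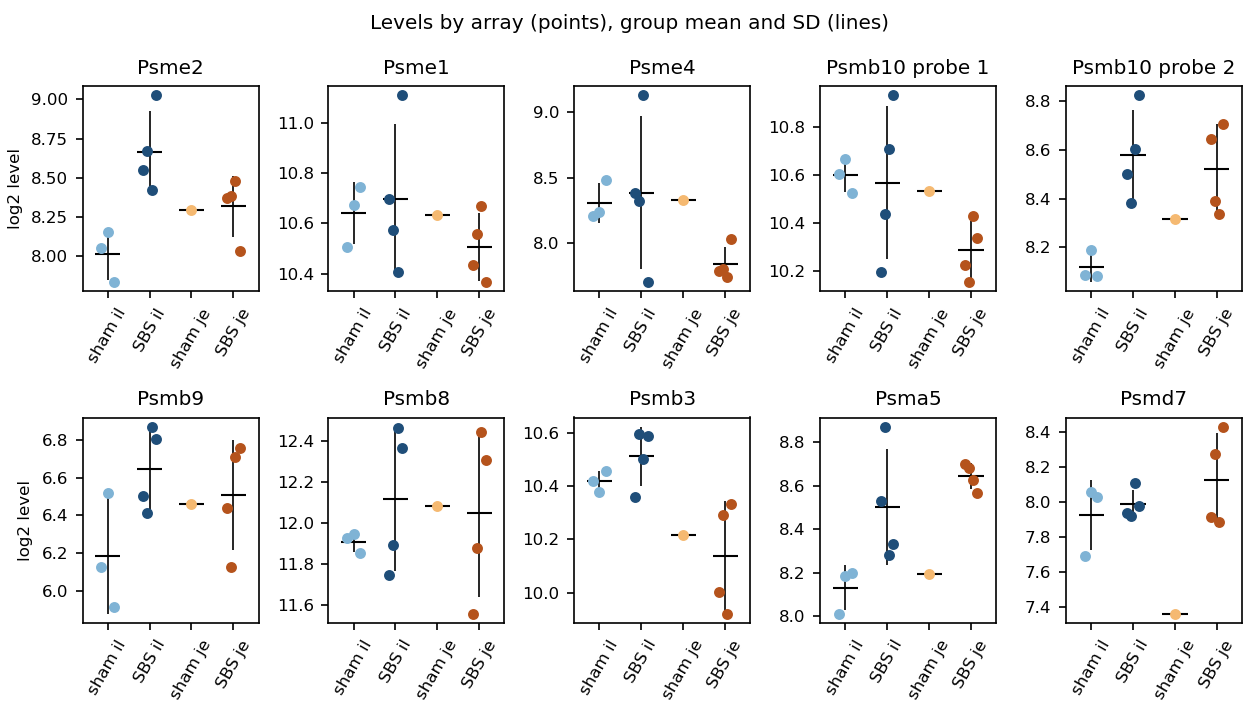
Log2 level on each of the 12 arrays (points), group mean (horizontal line) and SD (vertical line) for 8 proteasome probes and the interferon-responsive subunits Psmb8 and Psmb9. Psme2 and Psmb10 probe 2 are higher on all 4 SBS ileal arrays than on the 3 sham ileal arrays, and Psmd7 is lowest on the sham jejunal array.

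The ATPase ring of the cap had 5 kept probes. In the ileum 4 of 5 were positive, with a median of 0.06, which was -0.01 after cyclic loess normalization. Psmc5 had the largest test statistic of the 5, with sham levels of 7.57, 7.54 and 7.56 and SBS levels of 7.64, 7.70, 7.88 and 8.03. The groups did not overlap, but the difference of 0.26 ± 0.21 (95% interval -0.21 to 0.72) had a limma adjusted p of 0.596. Its widest spread was in the SBS jejunum, where arrays stood at 7.35, 7.64, 7.45 and 8.37. The highest of these was SBS jejunum 4. Psmc2 was the ATPase with the largest statistic in the jejunum, at 8.46 in sham and 8.004, 8.21, 8.20 and 8.22 in SBS. All 4 SBS arrays were below the sham array, and the difference of -0.31 (95% interval -0.72 to 0.11) had a limma adjusted p of 0.604.

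The non-ATPase subunits of the cap, the scaffold and ubiquitin-binding parts, were 8 of 9 positive in the ileum with a median of 0.07, which was -0.09 with median scaling. In the jejunum all 9 of 9 were positive, with a median of 0.33, and under other settings the median stayed between 0.27 and 0.46. All 9 probes were compared with the same lone sham array. Psmd7, a scaffold partner of the deubiquitinase Psmd14, differed most in the jejunum. It stood at 7.36 in sham jejunum and at 7.91, 8.27, 7.89 and 8.43 in SBS jejunum, against 7.69, 8.05 and 8.03 in sham ileum and 7.94, 7.92, 8.11 and 7.98 in SBS ileum. The sham jejunal array was the lowest of all 12. The jejunal difference of 0.77 ± 0.23, or 1.70-fold (95% interval 0.26 to 1.27), had a limma adjusted p of 0.159. The ileal difference was 0.06 (95% interval -0.28 to 0.41). Psmd4, a ubiquitin receptor, differed by 0.03 in the ileum and 0.33 in the jejunum, where the limma adjusted p was 0.674. Psmd6 had the largest ileal statistic of the class, a difference of 0.32 (95% interval -0.04 to 0.67) with a limma adjusted p of 0.362.

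Single arrays weigh on the jejunal values of the cap. SBS jejunum 4 was the highest of the 4 SBS jejunal arrays for 10 of 14 cap probes and for 23 of 37 proteasome probes, where it was highest for 29.9% of all kept probes. The non-ATPase mean deviation was 0.36 on it and -0.01 to 0.05 on the other 3. The lone sham jejunal array, which enters every jejunal difference, had the lowest mean of the 12 arrays for this class, at -0.24, with 0 of 9 probes above their own mean. The median jejunal difference of this class was 0.23 without SBS jejunum 4. SBS jejunum 4 is the array with the high Fabp6, and the part of that in these values was not tested.

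Psmd5, Psmd9, Psmg1 and Psmg2 help to assemble the cap or the core. Psmd5, a chaperone of the ATPase ring, stood at 5.34, 5.47 and 5.26 in sham ileum and 5.84, 5.41, 5.61 and 5.75 in SBS ileum. One SBS array, the second, fell within the sham range. In the jejunum it stood at 5.05 in sham and 5.31, 5.90, 5.61 and 5.95 in SBS, all above the sham array. Differences were 0.30 ± 0.17 in the ileum (limma adjusted p of 0.416) and 0.64 ± 0.25 in the jejunum (limma adjusted p of 0.305). Psmg1, a chaperone of alpha ring assembly, differed by -0.07 (95% interval -0.59 to 0.45) and 0.03 (95% interval -0.73 to 0.79). The class was split in the ileum, with 2 of 4 positive, and 4 of 4 were positive in the jejunum.

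Over all classes, the SBS and sham ileal arrays did not overlap, with SBS higher, for 6 of 37 proteasome probes, or 16.2%, against 10.7% of all kept probes. These were Psma2, Psma5, Psmb4, Psmb10 probe 2, Psmc5 and Psme2. SBS was lower without overlap for 0 of 37, against 8.43% of all kept probes. In the jejunum all 4 SBS arrays lay above the lone sham array for 11 of 37, or 29.7%, against 21.2%, and below it for 3 of 37, or 8.11%, against 19.9%.

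Between gut regions of SBS rats, 0 of 37 proteasome probes were called by limma, where 9.27% of all kept probes were called. At an unadjusted p under 0.05 there were 4 of 37, or 10.8%, against 21.2%. The median difference, jejunum minus ileum, was -0.11, and -0.01 over all kept probes. Differences were positive for 12 of 37, or 32.4%, against 48%. With median scaling the median turned to 0.018, and 20 of 37 were positive. The 95% interval lay within 1 log2 unit of 0 for 36 of 37, all but Psme4, against 85.8% of all kept probes. The beta ring had negative values for 9 of 9 probes, with a median of -0.16, which ran from -0.17 to -0.0053 under the other settings tried and from -0.22 to -0.10 with single arrays left out. Psmb3, a beta subunit without a proteolytic site, was picked here after its values were seen. It stood at 10.36, 10.60, 10.50 and 10.59 in SBS ileum and 10.00, 10.29, 9.92 and 10.33 in SBS jejunum. The groups did not overlap, the only such probe with jejunum lower of 37, or 2.7%, against 6.42% of all kept probes. Its difference was -0.37 ± 0.12 (95% interval -0.64 to -0.11), with a limma adjusted p of 0.0846. With the rat as a random block the adjusted p was 0.0207, and with the rat as a fixed block 0.0786. Psmd12, a cap subunit, was the only probe with jejunum higher without overlap, against 6.11% of all kept probes. It differed by 0.32 (95% interval 0.04 to 0.60), with a limma adjusted p of 0.161. Psme2 and Psme4 had differences of -0.35 and -0.54, with limma adjusted p-values of 0.211 and 0.203. T and NK cell markers were lower there too, 7 of the 9 kept being called, and their part in these values was not tested. Between regions of sham rats, with 1 jejunal array, which has the sample code of sham ileum 1, 0 of 37 were called by limma, against 0.624% of all kept probes, 2 of 37 had an unadjusted p under 0.05, against 9.04%, and the median was -0.01.

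**Figure D4:**
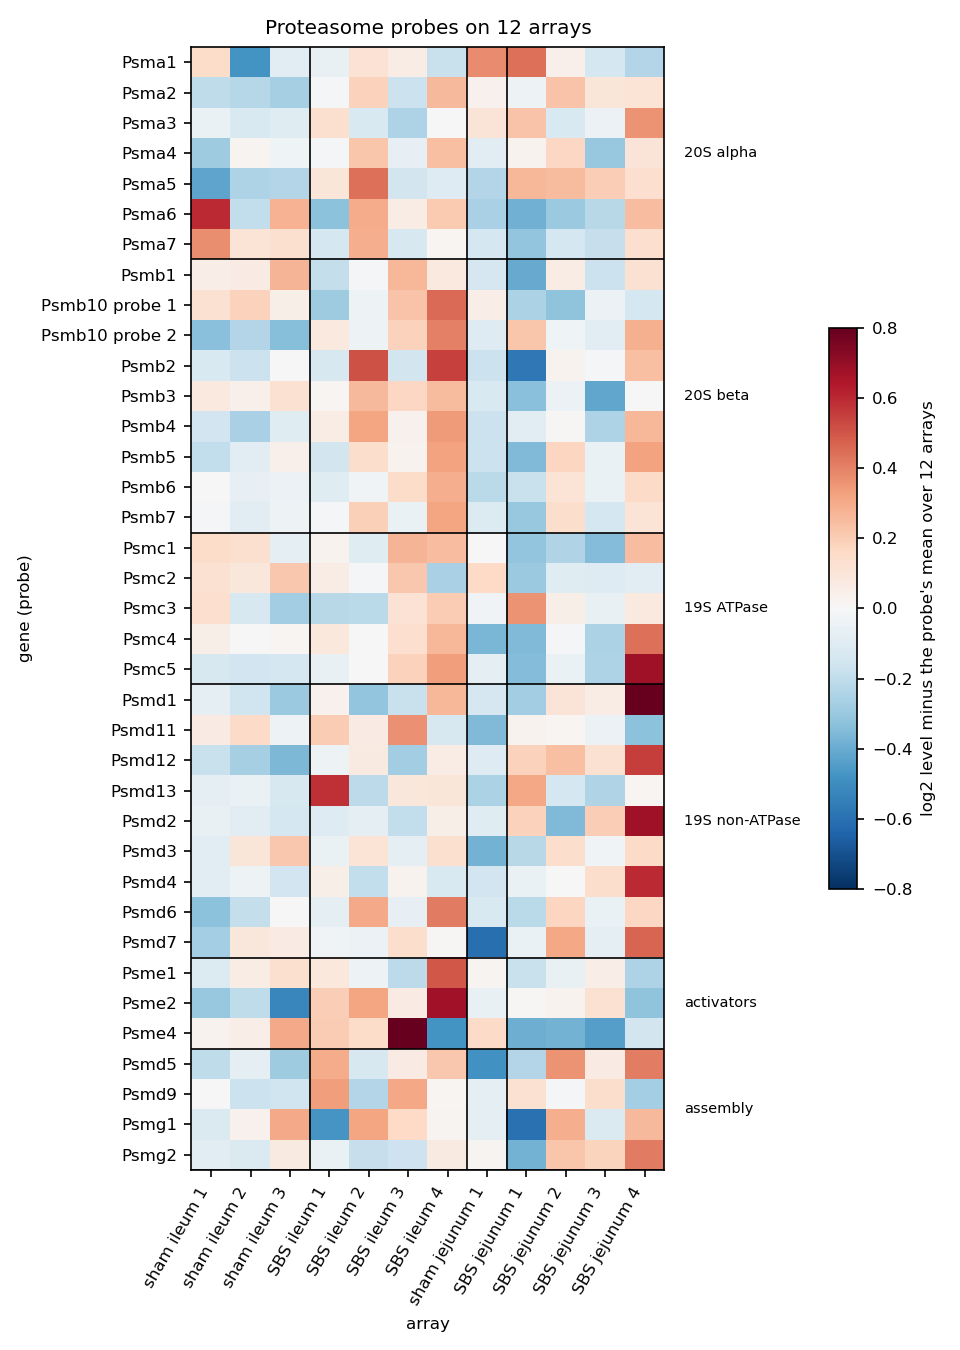
Log2 level of each kept proteasome probe on the 12 arrays minus that probe's mean over the arrays, by class, with colours ending at 0.8 in either direction. SBS ileum 4 and SBS jejunum 4 hold the most red cells, with 30 and 28 of 37 probes above their own mean.

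Within groups the beta ring probes varied together, with a higher mean correlation than the other classes among themselves. Each probe's deviations from its group means were correlated over the 11 arrays of the groups with replicates, as a description. The arrays share RNA quality, cell makeup and, for SBS rats, animals. Over 666 pairs of proteasome probes the mean correlation was 0.16, with 63.8% of pairs positive, and over all pairs of kept probes it was 0.002, with 50.1% positive. Among the 9 beta ring probes all 36 pairs were positive, with a mean of 0.54, and the closest pair was Psmb2 with Psmb7 at 0.89. Without SBS jejunum 4 the mean was 0.45, and 32 of 36 pairs were positive. Alpha ring probes had a mean of 0.16 among themselves, ATPases 0.31 and non-ATPases 0.14. Among the ATPases, Psmc4 and Psmc5 had a correlation of 0.98. Between classes the mean was 0.35 for beta ring probes with ATPases and 0.25 with non-ATPases. It was 0.24 for beta ring probes with assembly factors, 0.18 with alpha ring probes, and 0.24 for ATPases with non-ATPases. The mean was -0.06 for alpha ring probes with activators and with assembly factors, and -0.09 for ATPases with activators. The activators split: Psme1 and Psme2 had a correlation of 0.73, while Psme4 had -0.80 with Psme1 and -0.86 with Psme2. The beta ring mean deviation was highest on SBS ileum 4, at 0.33, where 9 of 9 probes were above their own means, and lowest on SBS jejunum 1, at -0.25.

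**Figure D5:**
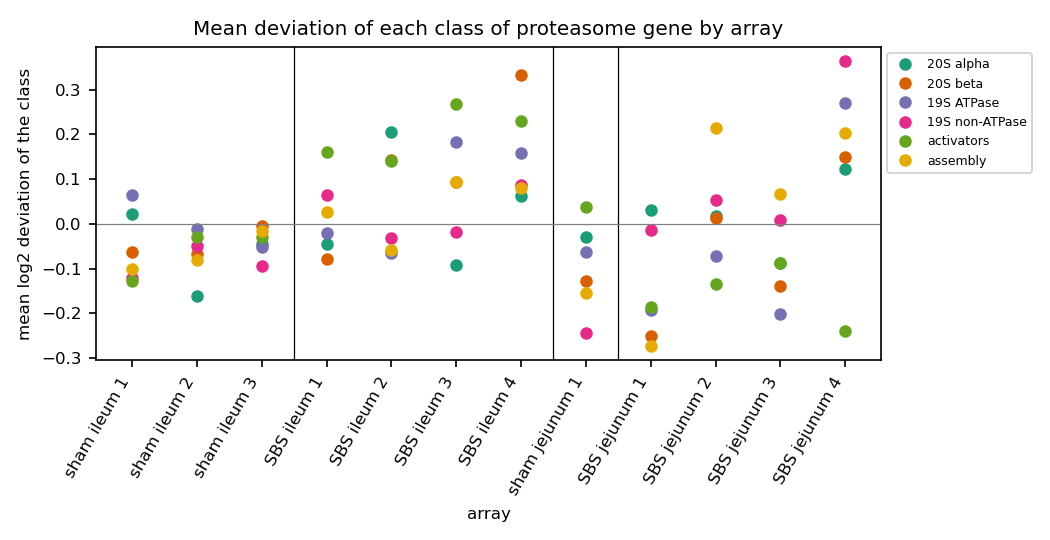
Mean log2 deviation of each class of proteasome gene from the probes' means, on each array. The beta ring is highest on SBS ileum 4 at 0.33, the non-ATPases on SBS jejunum 4 at 0.36, and the activators lie at 0.14 to 0.27 on the SBS ileal arrays.

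Promoter sequences were searched for the motif of the factors known to raise proteasome genes. RefSeq promoters of the rat build GRCr8, 250 bases before to 50 after the gene start, were matched for 36 of the 40 genes. The core of the antioxidant response element, which NFE2L1 and NFE2L2 bind, was searched as TGACNNNGC on both strands. It was held by 8 of 36 proteasome promoters, or 22.2%, and by 12.2% of 27457 rat promoters of the same length. The 8 were Psma3, Psmb2, Psmb5, Psmb6, Psmd1, Psmd3, Psmd9 and Psme4. CCAAT, searched on both strands as well, was held by 15 of 36, or 41.7%, and by 37.7% of all. A match is a description and not a bound site. The 3 promoters with a match and the largest ileal test statistic are shown, 5′ to 3′ on the gene's strand, with the matches in capitals. They are Psmd9 at chr12:39018215-39018514 on the minus strand, Psmb2 at chr5:144254808-144255107 on the plus strand and Psmb5 at chr15:32047330-32047629 on the minus strand.
Psmd9: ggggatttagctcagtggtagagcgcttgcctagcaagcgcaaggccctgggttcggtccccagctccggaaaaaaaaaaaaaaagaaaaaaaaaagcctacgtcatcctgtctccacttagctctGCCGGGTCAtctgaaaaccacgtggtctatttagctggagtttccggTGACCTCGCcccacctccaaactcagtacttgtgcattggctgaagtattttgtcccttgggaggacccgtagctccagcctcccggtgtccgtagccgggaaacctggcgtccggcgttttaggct
Psmb2: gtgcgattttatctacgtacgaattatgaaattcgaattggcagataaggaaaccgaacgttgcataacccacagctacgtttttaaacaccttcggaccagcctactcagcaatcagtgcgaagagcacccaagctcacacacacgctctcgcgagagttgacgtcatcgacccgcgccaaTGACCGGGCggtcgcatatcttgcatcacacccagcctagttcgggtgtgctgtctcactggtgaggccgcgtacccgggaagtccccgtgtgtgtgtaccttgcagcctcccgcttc
Psmb5: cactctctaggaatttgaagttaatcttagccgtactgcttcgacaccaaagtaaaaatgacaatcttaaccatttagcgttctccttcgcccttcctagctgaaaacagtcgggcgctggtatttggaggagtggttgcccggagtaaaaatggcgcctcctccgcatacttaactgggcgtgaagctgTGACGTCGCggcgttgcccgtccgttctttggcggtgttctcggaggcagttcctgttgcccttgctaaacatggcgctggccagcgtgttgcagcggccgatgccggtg
Psmd9 held 2 matches, with first bases at -124 (on the opposite strand) and -77 from the start. Psmb2 held 1 at -68 and Psmb5 1 at -60. Of these genes none was called, and their ileal differences were 0.21, 0.29 and 0.17.

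Genes that act beside the proteasome were tested one by one in the same model and are counted by list. Of 14 symbols listed for proteasome partners, Sem1 being listed under an older symbol as well, 8 were on the array and kept. Of these 0 were called by limma in either resection comparison, and their median differences were 0.16 in the ileum and 0.05 in the jejunum. Txnl1, a cap-bound thioredoxin, was chosen after its values were seen, and it differed by 0.43 in the ileum with a limma adjusted p of 0.251. Of 6 genes listed with NFE2L1, not all of them in its pathway, 3 were kept: Ngly1, Nfe2l2 and Akirin2. Nfe2l1 itself had no matched probe. Of the 3, 0 were called, and the medians were 0.15 in the ileum and 0.48 in the jejunum. Each median is 1 gene's value, Ngly1 in the ileum and Akirin2 in the jejunum, and not a reading of the pathway. The jejunal differences of Ngly1, Nfe2l2 and Akirin2, against the lone sham array, were 0.04, 0.70 and 0.48. Of 15 symbols listed for genes that make or deliver ubiquitin, Ufd1 being listed under an older symbol as well, 7 were kept. Of these 0 were called, with medians of 0.08 and 0.11.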

How the data were processed

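The deposited signal table gave each probe's mean bead signal as a linear intensity without normalization between arrays, and beside it a deposited detection p-value. The series matrix that the authors deposited held log2 values, which differed by at most 0.01 from quantile-normalized log2 signals without background correction, and had a median of 5.86 on each array. Which scanner software and background step were used was not given in the sources used here. Rat Quad and RatRef-12 arrays are both named by the labels; the labelling protocol says RatRef-12.

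Signals were background corrected with neqc from limma 3.58.1 in R 4.3.3 (normexp from the detection p-values, offset 16, quantile normalization, log2). The 9137 probes with a detection p-value under 0.05 in 3 or more of 12 arrays were kept. A linear model with 1 mean per group was fitted to all 12 arrays with lmFit and eBayes, with 1 spread per probe, assumed to hold for the single sham jejunum array too. Tests were two-sided, and p-values were adjusted by Benjamini-Hochberg over 9137 probes. Intervals are 95% intervals of that model. The number of arrays limits the precision. Within a group the sample codes differ and were read as different rats, which the labels do not state, so resection p-values measure the spread between these samples. The model took all 12 arrays as independent, so its p-values between regions leave out the pairing of arrays with the same code. Its spread per probe pools SBS ileal and SBS jejunal arrays of the same codes, so resection p-values rest on that assumption too.

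The members, gene lists and tests were chosen with earlier results of these data known. Genes named with values were the member with the largest test statistic of each class in each resection comparison, the catalytic subunits, Psmb8, Psmb9, Psmb10, Psmd4, the activators, Psmg1, and genes with several probes; others are named where groups did not overlap or as stated. The same codes pair the 4 SBS ileal with the 4 SBS jejunal arrays, and sham ileum 1 with sham jejunum 1. Deviations of the 4 SBS pairs correlated at 0.66, 0.47, 0.19 and 0.44 over all kept probes. Alternatives were other background corrections, scalings, filters and models, rat and replicate number as blocks, and each array left out. Gene symbols came from the platform annotation. Promoters came from RefSeq, and protein sequences were not used here.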

Additional observations from a re-analysis of the deposited data

Results flagged for a closer look

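Among 74 checks of 1 group's 4 arrays for a single array far from the others, 1 stood out, and chance gives about 5 in 100. Psmc2, an ATPase of the cap, was low on SBS jejunum 1, with a log2 level of 8.004 against 8.20 to 8.22 on the other 3. The gap was 0.921 of the group's range, above Dixon's 95% critical value. That array also carried the pancreatic lipase gene Pnlip at a log2 level of 9.13, and the part of that in the Psmc2 value was not tested.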

How the results depend on the processing

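Of the summary values under other settings or with 1 array left out, 201 stayed within the range set for them and 13 moved. A median stayed if it shifted by less than 0.095, the SD of the array mean of proteasome probes within groups. That range is about as large as the resection medians, 0.10 and 0.09, so these counts do not show that the medians held. The fall of the ileal median with median scaling counted as stayed. With array weights, 2 proteasome probes were called in the ileum, Psme2 (0.61, limma adjusted p of 0.019) and Psmb10 probe 2 (0.45, 0.0276). Between regions of SBS rats 1 was called in each of 4 settings: Psmb3 with array weights (-0.43, 0.0412), in the series matrix (-0.36, 0.0429), with an offset of 50 (-0.36, 0.0441) and with the rat as a random block (-0.37, 0.0207). Leaving out 1 array at a time gave 0 to 1 called in the ileum and 0 to 1 between regions of SBS rats: Psme2 without SBS jejunum 4 (0.0417), Psmb3 without SBS jejunum 4 (0.0451) and Psme4 without SBS ileum 4 (-0.77, 0.0315). Psmb3 reached 0.736 with median scaling. Median scaling moved the median of the proteasome probes to 0.23 in the jejunum, 0.24 for the difference of the resection effects, 0.018 between regions of SBS rats and -0.16 between regions of sham rats. It moved the ileal median of all kept probes from 0.03 to -0.09. With median scaling 8 of the 37 ileal differences turned from positive to negative. Psmd13 reversed to -0.029 from 0.22, Psmd1 to -0.09 from 0.13, Psmc3 to -0.19 from 0.06 and Psmd2 to -0.20 from 0.01; the others were Psma3, Psmd4, Psmd7 and Psme4. The cause was not tested.

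The rat as a fixed replicate block on the SBS arrays called 0 proteasome probes and 1272 probes in all, against 847 without it. With replicate number as a block, the jejunal median was -0.0082. The replicate numbers of sham and SBS ileum did not pair the arrays, with correlations of 0.21, -0.08 and 0.03. Counts over all kept probes ran from 78 to 929 in the ileum, 21 to 378 in the jejunum, 10 to 51 for the difference, 607 to 1519 between regions of SBS rats and 36 to 266 in sham rats. Leaving out single arrays gave 23 to 332, 97 to 182, 8 to 30, 593 to 932 and 28 to 100. The ileal count was 23 without sham ileum 2 and 25 without sham ileum 3. The 1 sham jejunal array and the 3 to 4 arrays of the other groups set these limits.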
